A study of Mus musculus with 10 samples.

Results

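The acute-phase and neutrophil genes examined here were Saa1, Saa2, Saa3, Lcn2, Hp, Lrg1, Cp, Ptx3, S100a8 and S100a9. They were chosen by symbol as 10 of the 54309 genes quantified in dorsal root ganglia (DRG), and the strong increase of Saa1 after nerve injury was part of the reason for the choice. All 10 were among the 20836 genes that passed the low-count filter and were tested. RNA-seq covered female and male C57BL/6 mice aged 6 to 8 weeks, with DRG of lumbar levels 4 and 5 collected 24 h after the left sciatic nerve was cut (axotomy) or exposed without being cut (sham). There were 3 axotomy and 2 sham libraries per sex, and each library pooled the ganglia of 2 mice. No library came from an animal without surgery, so any response to anesthesia, incision and exposure of the nerve is shared by the groups compared. The left side, on which the surgery was done, was sampled in all libraries.

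Acute-phase proteins are plasma and tissue proteins whose synthesis is raised by inflammatory cytokines, chiefly in the liver but also in many other tissues. Interleukin-6 acts through STAT3 and interleukin-1 through NF-kB and C/EBP factors. The serum amyloid A proteins (Saa1, Saa2, Saa3) are small apolipoproteins, with Saa3 made mostly outside the liver. Lcn2 binds bacterial iron carriers and is stored in neutrophil granules, Hp binds free hemoglobin, Cp is a copper-carrying iron oxidase, Lrg1 modulates TGF-beta signaling, and Ptx3 is a long pentraxin that binds complement C1q and TNFAIP6. S100a8 and S100a9 form calprotectin, the main cytosolic protein pair of neutrophils. A sensory ganglion holds neurons, satellite glia, Schwann cells, fibroblasts of its capsule, vessels and resident macrophages, and blood cells that remain in its vessels.

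The libraries held 55258476 to 90111671 estimated read counts, so that 3 counts, the smallest number taken as a limit of detection, correspond to 0.0333 to 0.0543 CPM (read counts scaled to a common library total). These limits cover counting error only. As a check of the tissue, 10 sensory neuron markers summed to 7445 to 9939 CPM and 9 satellite glia and Schwann cell markers to 6804 to 11960 CPM. Sums of 7 hepatocyte markers were 1.26 to 2.48 CPM. Female axotomy 1 stood apart in neutrophil genes and male axotomy 2 in the comparison of the sexes. Fitted values that rest on them are given with and without them. Correlations were computed over all 10 libraries only.

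The sequence upstream of the transcription start is shown for the serum amyloid genes, because Saa1 and Saa2 lay furthest above sham and are near copies of each other, and for Lcn2, the granule gene that was compared with them. RefSeq windows (GRCm38.p6) were found for 9 of the 10 genes, all except Hp. Each line gives the 250 bases before the start, 5′ to 3′ on the strand of the gene. Capitals mark matches on either strand to TTNNGNAA (the C/EBP pattern) or GGGNNNNNCC (an NF-kB pattern), which lie side by side in Saa1.
Saa1 (chr7:46742981-46743230, minus strand): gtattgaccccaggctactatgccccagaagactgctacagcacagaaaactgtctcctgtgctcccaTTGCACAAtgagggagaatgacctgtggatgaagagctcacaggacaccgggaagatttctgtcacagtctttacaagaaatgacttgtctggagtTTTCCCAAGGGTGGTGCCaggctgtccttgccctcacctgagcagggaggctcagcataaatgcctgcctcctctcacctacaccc
Saa2 (chr7:46751583-46751832, plus strand): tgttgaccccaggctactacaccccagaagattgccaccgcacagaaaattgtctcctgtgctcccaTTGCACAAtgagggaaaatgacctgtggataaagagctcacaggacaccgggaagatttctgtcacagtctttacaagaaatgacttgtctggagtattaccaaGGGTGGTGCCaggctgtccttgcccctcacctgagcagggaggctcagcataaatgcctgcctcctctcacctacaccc
Saa3 (chr7:46715677-46715926, minus strand): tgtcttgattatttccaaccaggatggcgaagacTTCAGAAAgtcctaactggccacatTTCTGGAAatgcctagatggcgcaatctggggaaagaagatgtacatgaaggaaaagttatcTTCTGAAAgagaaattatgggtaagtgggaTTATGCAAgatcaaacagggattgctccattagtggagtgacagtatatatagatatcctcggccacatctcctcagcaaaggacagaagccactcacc
Lcn2 (chr2:32387740-32387989, minus strand): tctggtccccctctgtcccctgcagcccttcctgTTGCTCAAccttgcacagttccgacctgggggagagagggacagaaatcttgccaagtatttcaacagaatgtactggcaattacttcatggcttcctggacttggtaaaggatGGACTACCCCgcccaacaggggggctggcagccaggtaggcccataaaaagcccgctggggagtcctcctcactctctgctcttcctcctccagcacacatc

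The windows of Saa1 and Saa2 were identical at 238 of 251 aligned positions (94.8%), and those of Saa1 and Saa3 at 154 of 295 (52.2%). Saa1 and Saa2 share the C/EBP match TTGCACAA and the NF-kB pattern match GGGTGGTGCC. Saa1 has an additional C/EBP match, TTTCCCAA, where the letters of Saa2 differ. The Saa3 window held 4 C/EBP matches and none of the NF-kB pattern. Of the 9 genes with a window, 8 had a C/EBP match (all but Lrg1), against 36.8% of the 32851 windows in the table. The NF-kB pattern was found in 5 of 9, against 45.8% of all windows. The STAT pattern TTCNNNGAA was found in 0 of 9, against 7.02% of all windows, and TATAAA on the gene's strand in 2 (S100a8 and the second start of Cp), against 7.59%. A match is a description of the letters in these windows only.

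**Figure D1:**
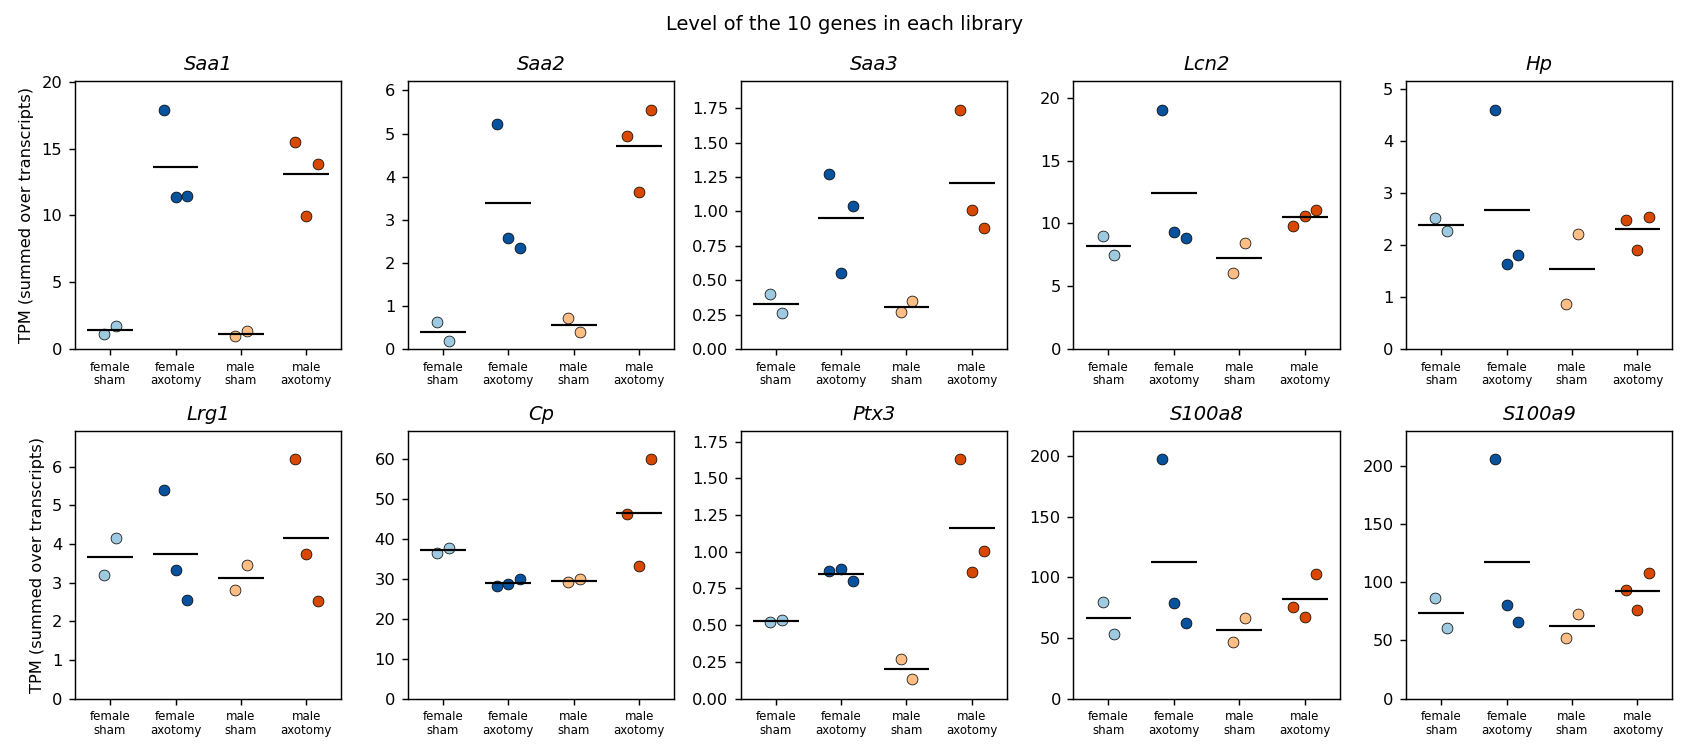
Level of each gene in TPM (vertical axis starting at 0) in every library, by sex and surgery. Points are libraries and lines are group means, and Saa1, Saa2, Saa3 and Ptx3 lay above sham in every axotomy library of both sexes.

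Levels are given in TPM (transcript abundance scaled for length and library total) and were summed over the transcripts of a gene. Saa1 measured 1.09 and 1.71 TPM in the female sham libraries and 17.9, 11.4 and 11.5 TPM in the female axotomy libraries. In males, Saa1 measured 0.982 and 1.32 TPM after sham and 15.5, 9.98 and 13.9 TPM after axotomy. The lowest axotomy library was thus far above the highest sham library in both sexes. The log2 fold change (log2FC) of axotomy over sham was 3.43 ± 0.36 (SE) in females and 3.71 ± 0.38 in males, or 10.8-fold and 13.1-fold. Because this increase was used in choosing the genes, it is a description and carries no test. Leaving out any 1 library moved it between 3.11 and 3.77 in females and between 3.50 and 3.92 in males.

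Saa2 was 3.17 ± 0.56 (SE) higher on the log2 scale in females and 3.21 ± 0.56 in males. It measured 0.618 and 0.176 TPM in female sham, 5.22, 2.57 and 2.34 TPM in female axotomy, 0.722 and 0.402 TPM in male sham, and 4.94, 3.65 and 5.55 TPM in male axotomy. Saa2 also separated every axotomy library from every sham library, at a lower level than Saa1 in every library. Leaving out female sham 1 raised the female log2FC of Saa2 to 4.45, leaving out female sham 2 lowered it to 2.55, and the male value stayed between 2.91 and 3.73 when any 1 male library was left out. The spliced Saa1 and Saa2 mRNAs are 609 and 606 bases long and identical at 93.9% of aligned positions, and 26.8% of the 31-base words of the Saa1 mRNA also occur in Saa2 transcripts. Reads from such stretches are divided between the genes by estimation, so the Saa2 values are not independent of Saa1 and are likewise given without a test. With Saa1, Saa2 and Saa3 summed, the log2FC was 3.46 ± 0.34 in females and 3.72 ± 0.34 in males.

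Most Saa1 counts belonged to the spliced mRNA, with 16.6 to 26.8 counts in the sham libraries and 176 to 322 in the axotomy libraries. A transcript with a retained intron held 1.07 to 6.88 counts after sham and 26.2 to 79.7 after axotomy. Its share of the 2 transcripts' counts was 4.85% to 27.3% in sham and 12.9% to 20.5% in axotomy libraries, so the shares overlapped between the groups while both transcripts were higher after injury.

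Saa3 was the lowest of the 3 paralogs after axotomy, and its transcripts did not move together. It measured 0.40 and 0.260 TPM in female sham, 1.27, 0.550 and 1.04 TPM in female axotomy, 0.266 and 0.345 TPM in male sham, and 1.74, 1.01 and 0.882 TPM in male axotomy. No axotomy library overlapped a sham library of its sex. In edgeR's quasi-likelihood test, with p values adjusted over all tested genes (padj) and a threshold of 0.1, Saa3 rose in females (log2FC 1.59 ± 0.47, padj = 0.0486) and in males (2.22 ± 0.48, padj = 0.00597). The female call was lost without female axotomy 1 (padj = 0.164), female sham 1 (padj = 0.127) or female sham 2 (padj = 0.284).

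Summed read counts of Saa3 were 12.7 and 23.7 in female sham and 16.5 to 30.7 in female axotomy, and thus overlapped. Without the correction for transcript length, the female log2FC was 0.48 and not called (padj = 0.447), and the male log2FC was 0.93 (padj = 0.0902). The 555-base spliced mRNA of 4 exons held 2 and 0 counts in female sham and 18, 5.41 and 13 in female axotomy. In males it held 1 and 0 counts in sham and 26.4, 19.9 and 14 in axotomy. Of its 31-base words, 5.33% also occur in Saa1 transcripts. The spliced Saa1 mRNA held 176 to 322 counts in female and 242 to 309 in male axotomy libraries. The Saa3 counts and their test are thus not fully independent of Saa1, and the share of such reads was not examined. The ratio of its counts per library total, axotomy over sham, was 13.3 in females (exact 95% interval 3.42 to 114) and 36.8 in males (6.36 to 1477), which covers counting error only. A 2200-base transcript shares exon 1 and has a single further exon of 2146 bases. That long transcript held 11.7 to 21.7 counts in female sham and 10.02 to 12.7 in female axotomy, and 10.5 to 15.8 in male sham and 7.02 to 12.6 in male axotomy. Its ratio was 0.761 in females (0.457 to 1.27) and 0.684 in males (0.389 to 1.21), both intervals including 1. The spliced mRNA made up 0% to 8.43% of Saa3 counts in the sham libraries and 32.9% to 67.1% in the axotomy libraries.

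**Figure D2:**
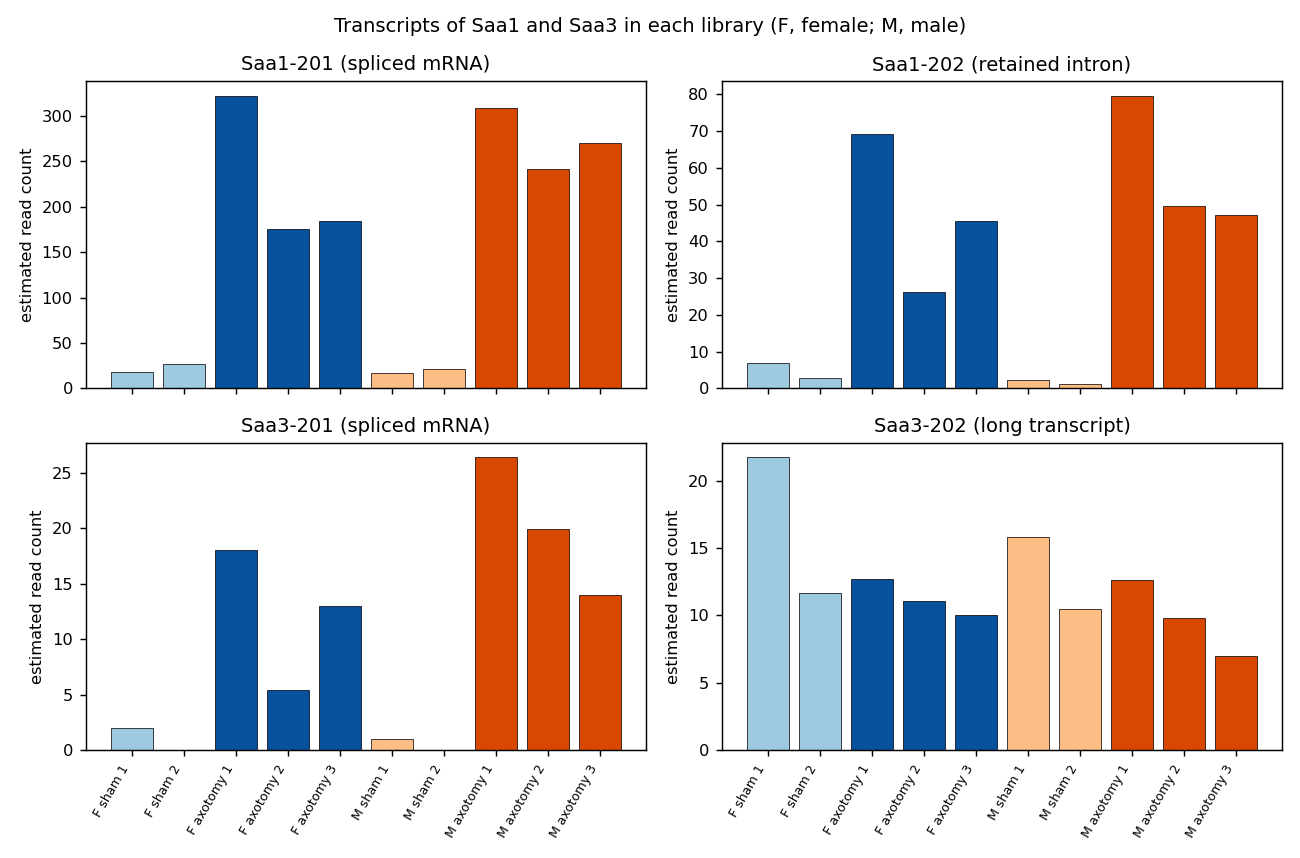
Estimated read counts (vertical axes) of the spliced and retained-intron transcripts of Saa1 and of the spliced and long transcripts of Saa3 in each library. The spliced Saa3 mRNA had 0 to 2 counts in sham and 5.41 to 26.4 after axotomy, while the long transcript stayed between 7.02 and 21.7 in all libraries.

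Of the 8 genes other than Saa1 and Saa2, 1 was upregulated in females (Saa3) and 0 were downregulated at padj under 0.1, beside 10.4% of all tested genes upregulated and 9.74% downregulated. In males 3 of the 8 were upregulated (Saa3, Ptx3 and Cp) and 0 downregulated, beside 21.8% and 20.1% of all genes. The median log2FC of the 8 genes was 0.76 in females and 0.78 in males, and that of all tested genes 0.00044 and 0.027. In TPM, 4 of the 10 genes lay above every sham library in every female axotomy library, beside 16.1% of genes, 8 of 10 in males, beside 17.2%, and the same 4 in both sexes (Saa1, Saa2, Saa3 and Ptx3), beside 8.06%. The genes were chosen with this contrast known, and nothing is read from these counts.

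**Figure D3:**
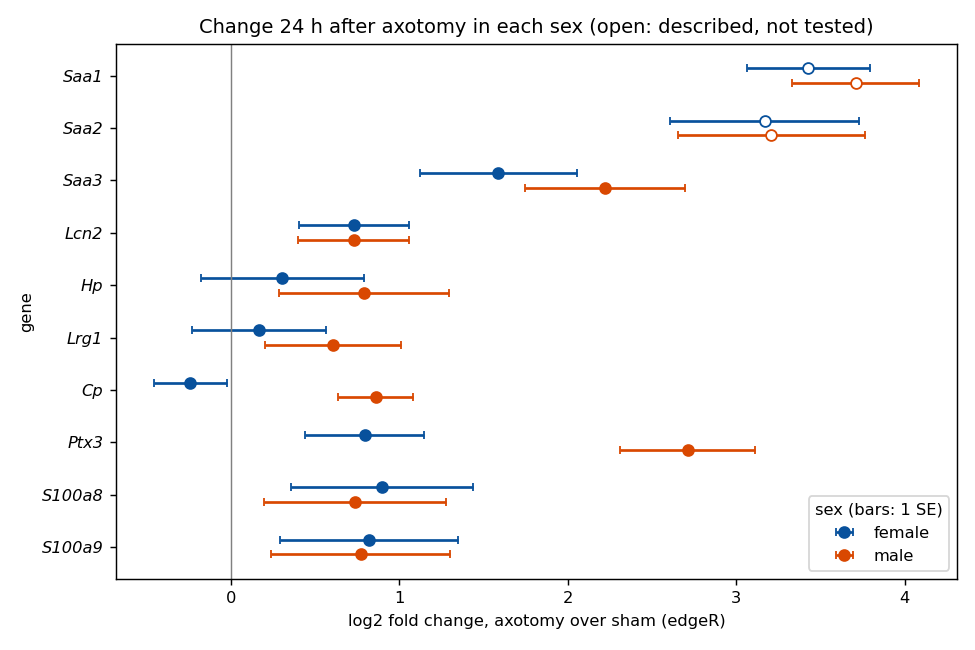
Log2 fold change of axotomy over sham (horizontal axis) with 1 SE for each gene in females and males. Saa1 and Saa2 (open symbols) are described without a test, and Cp lay at −0.24 in females and 0.86 in males.

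Ptx3 had the greatest male fold change of the genes outside the Saa family. It measured 0.525 and 0.538 TPM in female sham and 0.867, 0.883 and 0.798 TPM in female axotomy. In males it measured 0.271 and 0.131 TPM after sham, from 16 and 7 counts, and 1.63, 0.860 and 1.004 TPM after axotomy. Axotomy libraries of both sexes lay above their sham libraries, while the male sham libraries lay below the female ones. Ptx3 rose in males (log2FC 2.71 ± 0.40, padj = 0.00129, and 3.32 without male sham 1) and did not pass the threshold in females (0.79 ± 0.35, padj = 0.165). The difference of the responses, male minus female, was 1.92 ± 0.53 and did not pass either (padj = 0.259), although DESeq2 called it (padj = 0.0888). Without male axotomy 2 edgeR called it as well (2.14, padj = 0.0407). That fit called 5.64% of all tested genes with a higher and 4.72% with a lower log2FC in males. The main fit called 0.0192% in either direction. In sham, Ptx3 was lower in males by −1.39 ± 0.44 on the log2 scale (padj = 1), and after axotomy the sexes differed by 0.53 ± 0.29 (padj = 0.417).

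Cp lay on opposite sides of sham in females and males. It measured 36.5 and 37.9 TPM in female sham and 28.4, 28.7 and 30.04 TPM in female axotomy, and 29.3 and 29.99 TPM in male sham and 46.2, 33.2 and 60.01 TPM in male axotomy. Every female axotomy library lay below, and every male axotomy library above, the sham libraries of its sex. Cp rose in males (log2FC 0.86 ± 0.22, padj = 0.0146), whereas the female value of −0.24 ± 0.21 did not pass (padj = 0.502). In the fit of female libraries alone the female value of −0.23 was called (padj = 0.0213). The male response exceeded the female one by 1.10 ± 0.31 (padj = 0.267 with edgeR, 0.0202 with DESeq2, and 0.00335 with edgeR without male axotomy 2). After axotomy, Cp was 0.76 ± 0.19 higher in males (padj = 0.123 with edgeR and 0.00338 with DESeq2). Without male axotomy 2 this difference was 0.99 (padj = 0.000809). That fit called 5.64% of all tested genes with a higher and 4.72% with a lower log2FC in males, against 0.0192% in the main fit. Between the axotomy groups it called 8.74% higher and 8.37% lower in males, against 1.52% in the main fit. Calls of Cp in that fit thus stand beside many other genes.

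Summed markers of several other cell types were, like Cp, higher in male axotomy than in male sham libraries. The 10 fibroblast and meningeal markers summed to 980 to 1032 CPM in female sham, 868 to 1021 in female axotomy, 795 to 798 in male sham and 1081 to 2342 in male axotomy, and none of them was at 0. In the tests 9 of these 10 rose in males, beside 21.8% of all tested genes, and 0 rose and 2 (Col1a1 and Col1a2, named after their values were seen) fell in females. The 6 erythroid markers measured summed to 769 to 845 CPM in male sham and 1502 to 5681 in male axotomy, and to 1098 to 1519 in female sham and 686 to 2269 in female axotomy. All 6 rose in males and 0 in females. In female axotomy 1, 2 and 3 the erythroid sum was 2269, 686 and 902 CPM, and Cp measured 28.4, 28.7 and 30.04 TPM. Over the 10 libraries, Cp had a Pearson r of 0.978 with the fibroblast and meningeal sum and 0.893 with the erythroid sum. With the sum of 8 macrophage markers it was 0.842. These values are a description over libraries that share their groups. The part of these cells in the result was not tested. In tissue of this kind, more cells of a type and more RNA per cell cannot be told apart.

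**Figure D4:**
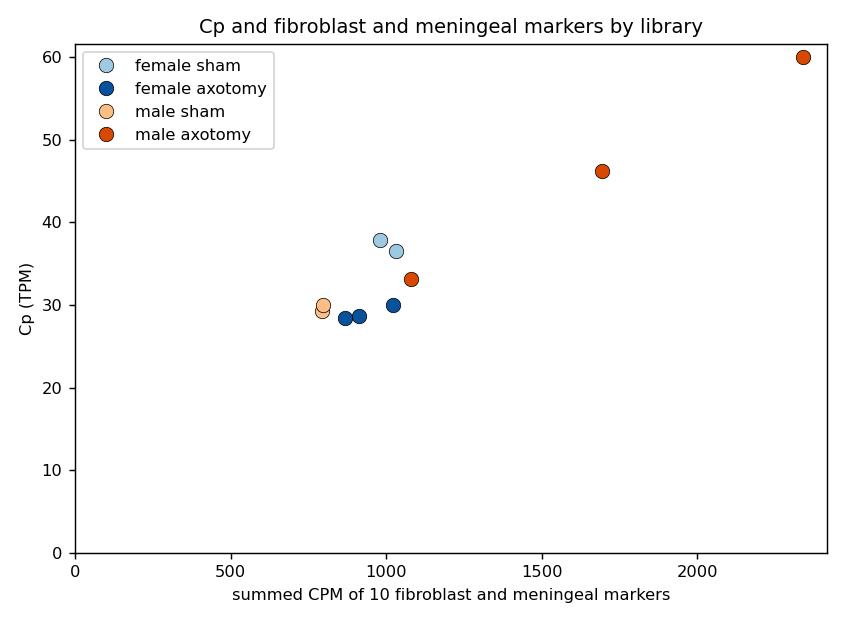
Cp level in TPM (vertical axis) against the summed CPM of 10 fibroblast and meningeal markers (horizontal axis), 1 point per library, both axes from 0. The 3 male axotomy libraries lie at 33.2 to 60.01 TPM and 1081 to 2342 CPM, the male sham libraries at 29.3 to 29.99 TPM and 795 to 798 CPM.

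S100a8, S100a9 and Lcn2 were the neutrophil genes, and calprotectin transcripts were the most abundant of the 10 genes in every library. S100a8 measured 79.8 and 53.6 TPM in female sham, 197, 78.5 and 62.1 TPM in female axotomy, 46.7 and 66.7 TPM in male sham, and 75.8, 67.6 and 102 TPM in male axotomy. S100a9 measured 86.4 and 60.3 TPM in female sham, 206, 80.4 and 66.1 TPM in female axotomy, 52.2 and 72.5 TPM in male sham, and 93.1, 76.4 and 108 TPM in male axotomy. Female axotomy 1 was far above all other libraries, and the other female axotomy libraries lay within the female sham range. The ratio of S100a8 to S100a9 was 0.814 to 0.976 in the 10 libraries.

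Neither calprotectin gene passed the test. The log2FC of S100a8 was 0.90 ± 0.54 in females (padj = 0.318) and 0.74 ± 0.54 in males (padj = 0.338). That of S100a9 was 0.82 ± 0.53 in females (padj = 0.355) and 0.77 ± 0.53 in males (padj = 0.308). Without female axotomy 1 the female values fell to 0.17 and 0.087. Because 1 fit shares its estimate of the spread over the groups, the male values were called without that library, at padj = 0.0563 for S100a8 and 0.0306 for S100a9.

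Lcn2 measured 8.97 and 7.46 TPM in female sham and 19.1, 9.35 and 8.85 TPM in female axotomy. In males it measured 6.08 and 8.42 TPM after sham and 9.82, 10.6 and 11.1 TPM after axotomy. The male groups were apart, and the lowest female axotomy library lay just below the highest female sham library. Its log2FC was 0.73 ± 0.33 in both sexes, and it did not pass with edgeR (padj = 0.166 in females and 0.112 in males). It was called with DESeq2 in females (padj = 0.0850) and males (padj = 0.0650). Without female axotomy 1, the female value was 0.24 (padj = 0.510) and the male value was called at padj = 0.0125.

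The neutrophil list held 20 markers besides these 3 genes, none of them at 0 in all libraries. Their sum was 87.6 CPM in female axotomy 1 and 34.6 and 38.8 CPM in the other female axotomy libraries, against 29.04 and 40.6 CPM in female sham. In males the sum was 44.3 to 55.7 CPM after axotomy and 24.3 to 33.7 CPM after sham. Of the 20 markers, 18 had their highest level in female axotomy 1. With the 3 genes counted, 3 of 23 markers rose in each sex and 0 fell. Of all tested genes, 10.4% rose in females and 21.8% in males. The median log2FC of the 23 was 0.73 in each sex, which is the value of Lcn2 itself. Those that rose, named after their values were seen, were Ly6g, Elane and Hdc in females and Cxcr2, Itgam and Hdc in males. Without female axotomy 1, in a fit added after the data were seen, 1 of 23 (Hdc) rose in females, beside 5.5% of all genes. The female median was 0.087, which is the value of S100a9 itself. In males 13 of 23 rose, beside 21.5%, with a median of 0.73. Lcn2, S100a8 and S100a9 were among these 13, so the list is not independent of the 3 genes. The Pearson r with the sum over the 10 libraries was 0.987 for Lcn2, 0.984 for S100a9, 0.971 for S100a8 and 0.880 for Hp, and 0.724 for Saa1. Female axotomy 1 was the highest library for the sum and for each of these genes, and r was not computed without it. The part of neutrophil number in these results was not tested.

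**Figure D5:**
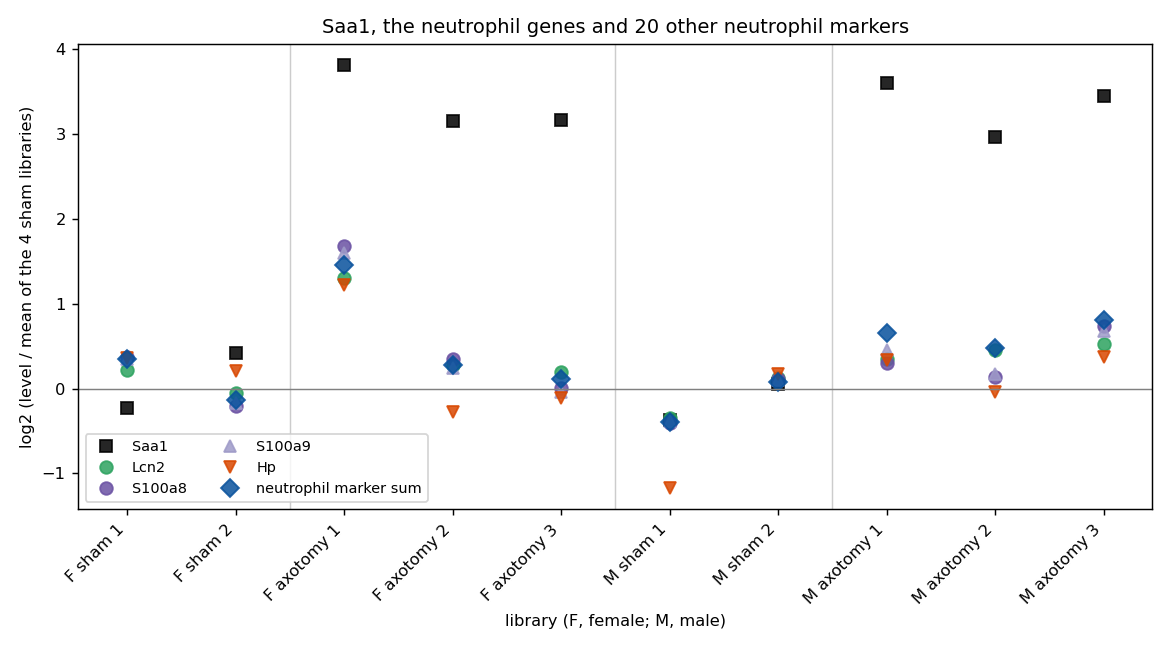
Log2 ratio of each library's level to the mean of the 4 sham libraries (vertical axis) for Saa1, Lcn2, S100a8, S100a9, Hp and the sum of 20 other neutrophil markers. Saa1 lies at 2.97 to 3.81 in the axotomy libraries, whereas the marker sum lies at 1.46 in female axotomy 1 and at 0.12 to 0.81 in the other axotomy libraries.

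Saa1, whose increase was used in choosing the genes, was above sham in every axotomy library, and it was highest in female axotomy 1 (17.9 TPM). The female log2FC of Saa1 was 3.14 without female axotomy 1, and the tested genes with the most similar levels over the 10 libraries were Itgb1 (Pearson r 0.993), Gnpda2 (0.990), Pabpc1 (0.990), Zfp68 (0.989) and Pdcl3 (0.989), none of which is a neutrophil marker of the list. The genes most like Lcn2 were Ngp (0.971), Camp (0.971), S100a9 (0.970), S100a8 (0.966) and Retnlg (0.949), all granule or neutrophil genes of the list. The genes most like S100a8 were S100a9 (0.994), Ngp (0.975), Chil3 (0.974), Retnlg (0.974) and Reck (0.970). These correlations describe libraries that share their groups and carry no test, and those of Saa1 follow a difference used in choosing the genes. None of them was computed without female axotomy 1, the library in which Saa1, Lcn2 and S100a8 were highest.

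Hp and Lrg1 did not pass in either sex. Hp measured 2.52 and 2.26 TPM in female sham, 4.59, 1.63 and 1.81 TPM in female axotomy, 0.871 and 2.21 TPM in male sham, and 2.48, 1.91 and 2.54 TPM in male axotomy. The groups overlapped in both sexes, and 2 female axotomy libraries were below both female sham libraries. Its log2FC was 0.30 ± 0.48 in females (padj = 0.725) and 0.79 ± 0.50 in males (padj = 0.254). Without female axotomy 1 the female value was −0.39. Leaving out male sham 1 gave a male value of 0.26, and leaving out male sham 2 gave 1.60 (padj = 0.106). Lrg1 measured 3.20 and 4.16 TPM in female sham, 5.39, 3.32 and 2.54 TPM in female axotomy, 2.81 and 3.46 TPM in male sham, and 6.19, 3.74 and 2.53 TPM in male axotomy. Its axotomy libraries spread on both sides of the sham libraries in each sex. The log2FC was 0.17 ± 0.40 in females (padj = 0.820) and 0.61 ± 0.40 in males (padj = 0.277).

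The comparison of the sexes was not a stated reason for choosing the genes, and it was tested for all 10. The choice was made with earlier results of these data known, and the study reports induction of Ptx3 in males. With edgeR 0 of 10 were called for the difference of the injury responses, beside 0.0192% of all tested genes. In that comparison 2 had an unadjusted p under 0.05, Cp and Ptx3, and DESeq2 called these 2. Over all tested genes, DESeq2 called 2% with a higher and 0.571% with a lower log2FC in males. Between the sham groups 0 of 10 were called, beside 0.0432% of genes, with 1 at an unadjusted p under 0.05 (Ptx3) and 0 called by DESeq2. Between the axotomy groups 0 of 10 were called, beside 1.52% of genes, with 1 at an unadjusted p under 0.05 (Cp), which DESeq2 called. There DESeq2 called 3.5% of all tested genes higher and 2.3% lower in males. For Saa1 the response of males exceeded that of females by 0.28 ± 0.51 (95% interval −0.72 to 1.28, padj = 0.855). For Lcn2 the difference was −0.0025 ± 0.46 (−0.91 to 0.90, padj = 0.999). For S100a8 it was −0.16 ± 0.75 (−1.63 to 1.304, padj = 0.949), so a difference of over 2-fold in either direction lay within the interval. After axotomy Saa1 differed between the sexes by 0.014 ± 0.26 (−0.49 to 0.52, padj = 0.984).

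Other acute-phase genes, in a list of 27, were in part near the limit of detection. In all, 10 did not pass the low-count filter, among them the liver products Crp, Apcs, Fga, Fgb, Orm1 and Orm2, and none of the 10 exceeded 0.639 TPM in any library. Fgb was listed at 0 in all 10 libraries, and the hepatocyte product Alb did not exceed 0.0588 TPM. Of the 17 tested, 1 rose and 2 fell in females, and 10 rose and 0 fell in males, with a median log2FC of 0.32 in females and 0.91 in males. The shares of all tested genes were 10.4% rising and 9.74% falling in females and 21.8% and 20.1% in males. The 2 that fell in females, named after their values were seen, were Serpina3g and A2m. The gene called in both sexes was Serpina3n, a protease inhibitor that marks injured and reactive nervous tissue. It rose in females, with 234 and 244 TPM in sham and 261 to 297 TPM in axotomy (log2FC 0.36 ± 0.12, padj = 0.0653), and in males, with 200 and 217 TPM in sham and 229 to 301 TPM in axotomy (0.59 ± 0.12, padj = 0.00418). None of the 17 was called for the difference between the sexes' responses. The 8 macrophage markers, all of which rose in males and 1 of which rose in females, summed to 63.8 to 72.8 CPM in male sham and 124 to 238 CPM in male axotomy. Their part was not tested.

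Of the 27 genes listed as inducing cytokines, their receptors and signal carriers, 24 were tested. In females 9 rose and 0 fell, and in males 14 rose and 1 fell, and 8 were called in both sexes, beside 10.4% and 9.74% of all tested genes in females and 21.8% and 20.1% in males. The gene that fell in males, named after its value was seen, was Lifr, a receptor of leukemia inhibitory factor. The median log2FC was 0.21 in females and 0.44 in males. Il6, the main inducer of acute-phase synthesis, rose in females, from 1.64 and 2.93 TPM in sham to 6.53 to 8.88 TPM in axotomy (log2FC 1.91 ± 0.30, padj = 0.00345) and in males, from 1.04 and 1.38 TPM in sham to 9.72 to 14.1 TPM in axotomy (3.45 ± 0.32, padj = 0.000252). Il1a rose from at most 0.0893 TPM in any sham library to 0.532 to 0.931 TPM in females (3.63 ± 0.48, padj = 0.00166) and 0.348 to 0.504 TPM in males (2.87 ± 0.48, padj = 0.00204). Il17ra, a receptor subunit for interleukin-17, rose in females (1.39 ± 0.21, padj = 0.00289) and males (1.07 ± 0.20, padj = 0.0036). Socs3, the feedback inhibitor induced by STAT3, rose in females (0.89 ± 0.18, padj = 0.0129) and males (1.43 ± 0.19, padj = 0.000915). Csf3, the growth factor for neutrophils, was at 0 in all 10 libraries, which allows up to 0.0333 to 0.0543 CPM.

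All 27 genes listed as receptors, binding partners and iron handlers were tested. In females 1 rose and 3 fell, in males 11 rose and 3 fell, and 3 were called in both sexes, with a median log2FC of −0.010 and 0.30. Against the same shares of all tested genes, 10.4% rising and 9.74% falling in females and 21.8% and 20.1% in males, nothing particular to the list is read from the female counts. Those that fell, named in part after their values were seen, were Tlr4, Slc22a17 and Cd163 in females and Slc22a17, Slc40a1 and Tfrc in males. Tnfaip6, the matrix-organizing protein that Ptx3 binds, rose in females, from 2.11 and 2.35 TPM in sham to 4.03 to 4.81 TPM in axotomy (1.07 ± 0.20, padj = 0.00853) and in males, from 1.48 and 1.97 TPM in sham to 4.84 to 6.47 TPM in axotomy (1.94 ± 0.21, padj = 0.000441). Slc22a17, a cell-surface receptor for Lcn2, fell in females (−0.35 ± 0.088, padj = 0.0287) and males (−0.41 ± 0.087, padj = 0.00556). Cd163, the macrophage receptor that takes up Hp with hemoglobin, fell in females (−0.79 ± 0.26, padj = 0.069) and rose in males (0.74 ± 0.26, padj = 0.0515). The difference of the Cd163 responses was 1.53 ± 0.37 and did not pass (padj = 0.231).

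The other marker lists are counted beside 10.4% of all tested genes rising and 9.74% falling in females and 21.8% and 20.1% in males, and most are too short to set against these shares. In them, 0 of 7 monocyte markers rose in females and 3 in males, and 0 of 6 skeletal muscle markers were called in either sex. The muscle markers differed between single libraries. Their sum was 109 CPM in female axotomy 2, 5.02 and 4.72 in the other female axotomy libraries, and 4.40 and 2.14 in female sham. In males it was 27.6 and 3.27 CPM after sham and 6.025 to 19.7 CPM after axotomy. Of 6 adipocyte markers tested, 0 changed in females and 1 rose in males. Of 7 endothelial markers 0 changed in females and 3 fell in males. Of 5 keratinocyte markers tested 1 rose in females and 2 in males. Of 4 hepatocyte markers tested 0 changed in females and 1 fell in males. Of 10 sensory neuron markers 5 fell and 0 rose in females, and 6 fell and 1 rose in males. Of 9 satellite glia and Schwann cell markers, 1 rose and 2 fell in females, and 7 rose and 0 fell in males. Fabp7, a fatty acid binding protein of satellite glia named here after its values were seen, was the 1 marker of these 9 called for the difference of the injury responses (1.68 ± 0.23, padj = 0.0919), and 1 of 4 such genes among all 20836. It fell in females (−0.99 ± 0.16, padj = 0.00439) and rose in males (0.69 ± 0.17, padj = 0.00983). The call for the difference was lost without female axotomy 1 and where only protein-coding transcripts were summed, as 0 genes were called in either fit. It was also lost without male sham 1 and without male sham 2, fits that each leave 1 male sham library.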

How the data were processed

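Poly-A RNA of pooled mouse DRG was sequenced as stranded, paired libraries. Per the labels and the study's methods, the authors trimmed reads with Trimmomatic 0.39 and assigned them to Gencode M27 transcripts (GRCm39) with Salmon 1.3.0. No source used here gives Salmon's strand setting. The deposited estimated counts are not normalized, and the deposited TPM values are Salmon's, scaled by effective length.

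Here counts were summed per gene, rounded and tested with edgeR 4.0.16 (R 4.3.3): TMM, effective lengths as offset, filterByExpr (minimum count 10), 1 fit of 10 libraries with 4 group means, quasi-likelihood F test, Benjamini-Hochberg adjustment over 20836 genes (padj) and a threshold of 0.1. The SE comes from the F value, and 95% intervals are 1.96 SE. Levels are TPM, and marker sums are CPM. DESeq2 1.42.0 was an alternative. Tested on simulated counts of the female injury contrast with equal lengths (20836 genes), the fit called 60 of 66 genes changed 4-fold, 45 of 67 changed 2-fold, 25 of 67 changed 1.5-fold and 20 unchanged genes. A shift between transcripts of unequal length changes fitted values through the offset, as for Saa3.

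The genes and lists were chosen with earlier results of these data known. Named were the 10 genes, from each list other than the cell type markers up to 4 genes called in both sexes with the largest mean absolute log2FC and any called for the sex difference, and the 5 genes most like Saa1, Lcn2 and S100a8. Each library pools 2 mice. Libraries with the same replicate number showed little residual correlation (r −0.0894 to 0.129 over 13 pairs). Residuals of a group of 2 libraries mirror each other, so these pairs are not all independent and pairing is not excluded. Marker lists for monocytes, adipocytes, endothelium, skeletal muscle and keratinocytes were counted too.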

Additional observations from a re-analysis of the deposited data

Results flagged for a closer look

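Cp was marked for a closer look because every axotomy library moved one way in one sex and the other way in the other. The log2 difference of the injury responses, male minus female, was 1.10, and it did not pass the threshold with edgeR (padj = 0.267) but passed with DESeq2 (padj = 0.0202). Groups of 2 or 3 libraries were not examined for single outlying values.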

How the results depend on the processing

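Of the 8 genes other than Saa1 and Saa2, those upregulated in females numbered 2 with DESeq2 (Saa3 and Lcn2), 2 in the fit of female libraries alone (Saa3 and Ptx3) and 0 without the length offset, beside 11.6%, 14.8% and 11.9% of all genes, against 1 (0 to 2 when 1 library was left out). In males they numbered 4 with DESeq2 (Lcn2 added) and 6 in the fit of male libraries alone (Saa3, Ptx3, Cp, Lcn2, S100a8 and S100a9), beside 20.8% and 17.5% of all genes, against 3 (3 to 6 when 1 library was left out). Without a low-count filter 1 of 10 (Ptx3) was called for the difference of responses and with DESeq2 2 were (0 to 2 when 1 library was left out). Between sham groups 1 (Cp) was called in the fit of those libraries alone, and between axotomy groups 1 (Cp) with DESeq2 and 1 without the offset (0 to 1 when 1 library was left out).

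Over all genes, called differences of responses numbered 536 with DESeq2, 14 with RLE size factors, 7 without the offset, 186 without the filter, 0 with protein-coding transcripts only and 15 with a total of at least 10 counts, against 4 (0 to 2158 when 1 library was left out, the highest without male axotomy 2). In the fit without the offset, 1.67% of all genes were called higher and 0.528% lower in males between axotomy groups. Called differences between sham groups numbered 32 with DESeq2, 37 with those libraries alone and 15 without the filter, against 9. Between axotomy groups they numbered 1208, 31 and 610, against 316 (26 to 3564, the highest without male axotomy 2). Injury calls ranged from 898 to 5604 in females, against 4191, and from 5122 to 9966 in males, against 8732, when 1 library was left out.

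Libraries with the same replicate number showed little residual correlation, which does not exclude pairing. With the replicate block, 1 gene was called up in females and 4 in males (Lrg1 added, padj = 0.077), beside 11.9% and 21.4% of all genes. In each sex comparison 0 were called. Over all genes that fit called 86 differences of responses and 620 differences between axotomy groups, against 4 and 316 in the main fit.

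Directions that turned were those of values that were not called. The Lcn2 difference of responses was 0.021 without the offset, 0.0089 without the filter, 0.0073 with protein-coding transcripts and 0.030 with the replicate block, against −0.0025. When 1 library was left out, female log2FC ranged from −0.39 to 0.57 (Hp) and −0.23 to 0.40 (Lrg1). Differences of responses ranged from −0.064 to 0.60 (Saa1), −1.24 to 0.66 (Saa2), −0.23 to 0.49 (Lcn2), −0.047 to 1.29 (Hp), −0.012 to 0.84 (Lrg1), −0.49 to 0.57 (S100a8) and −0.35 to 0.69 (S100a9). Male minus female differences in sham ranged from −0.58 to 0.076 (Saa1), −0.12 to 1.77 (Saa2), −0.46 to 0.14 (Saa3), −0.45 to 0.030 (Lcn2), −0.53 to 0.077 (S100a8) and −0.51 to 0.045 (S100a9). After axotomy they ranged from −0.15 to 0.30 (Saa1), −0.41 to 0.30 (Lcn2), −0.43 to 0.53 (Hp), −0.25 to 0.60 (Lrg1), −0.72 to 0.32 (S100a8) and −0.59 to 0.44 (S100a9). The causes were not tested. Groups of 2 sham libraries limit all comparisons, and Ptx3 and Saa3 rest on at most 111 counts per library.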
